A study of Arabidopsis thaliana with 24 samples.

Results

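The RNA-seq count columns of 6 samples of Arabidopsis thaliana, accession C24, fall into 2 sets that cross genotype. The first set holds the wild types WT C24 1 and WT C24 3 and the mutant lsm5 3. The second set holds WT C24 2, lsm5 1 and lsm5 2. The split was chosen from the gene counts of these same 6 columns, of 12 count columns in the series, so what differs between the sets is given as a description, with no test. WT C24 and lsm5 (also named sad1) were whole plants grown on soil at 22 °C in continuous light and harvested on day 30, before bolting. WT Col and lsm4 (lsm4-1), which are used for a check in other samples, were whole plants of accession Col grown on agarose medium and harvested on day 15; the design text of the series gives a shorter single time for all plants. Each genotype has 3 replicates, with 1 count column and 2 sequenced libraries for each, 24 libraries in all. RNA was polyA-selected; in such bulk RNA, fewer cells of a type and less RNA per cell cannot be told apart. The labels call the source a pool of tissues and do not say that replicates came from separate growths, so a p-value measures the spread between these samples.

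LSM4 and LSM5 are Sm-like proteins. They form rings of related subunits. A nuclear ring binds the splicing RNA U6, and a cytoplasmic ring promotes the removal of mRNA caps. The plant circadian clock couples morning genes such as CCA1 and LHY to daytime PRR genes and to evening genes such as TOC1, GI, ELF4 and LUX, and plants of different clock phase or stress state differ in the levels of these and of their targets. Base composition, the share of G and C, also differs among transcripts and along them.

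The columns differed in more than the split. In each of the 4 genotypes the first-set columns had the lowest totals: 16997209 and 25528418 gene counts in WT C24 1 and 3 against 37194686 in WT C24 2, and 31139275 in lsm5 3 against 31532714 and 34825263 in lsm5 1 and 2. The same held for WT Col 1 (9402839 against 52218346 and 26162800) and lsm4 2 (31480105 against 34800709 and 34651672). The part of depth in the split was not tested. Chloroplast-encoded genes made up 2.88%, 2.23% and 0.14% of the counts in the first set and 1.03%, 0.234% and 0.781% in the second, so they did not follow the sets. The summed level of 9 root markers lay between 36 and 41.5 CPM (gene counts scaled to a common column total) in the first set and between 33.8 and 39.9 CPM in the second; 2 of them were at 0 in all 6 columns. Those of 10 senescence markers (942 to 1300.4 and 931 to 1161 CPM), 5 flower markers (0.588 to 5.33 and 2.47 to 5.52 CPM) and 3 meristem markers (7.47 to 12.3 and 10.4 to 13.4 CPM) also overlapped between the sets. Of 6 seed storage markers, 4 were at 0 in all 6 columns and the sum stayed at or below 0.127 CPM.

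The mutated gene is no check of the labels. LSM5 (AT5G48870) was at 19.9, 12.2 and 15.2 CPM in the wild type replicates 1 to 3, against 10.1, 11.1 and 16.7 CPM in the mutant ones (here and below, CPM with TMM scaling), so its genotypes overlapped (log2 change in lsm5 -0.32, SE 0.27, edgeR quasi-likelihood adjusted p 0.59 after Benjamini-Hochberg adjustment). Its 3 highest values were those of the first set, where its log2 difference was 0.59 (SE 0.16). Other genes followed the labels. AT2G15555, a gene with no product named in the annotation used, was at 0.0569, 0.182 and 0.23 CPM in the wild type and at 70.7, 74.5 and 67.9 CPM in the mutant, a log2 change of 8.69 (SE 0.32, edgeR quasi-likelihood adjusted p 1.6e-05). It did not differ by set (log2 -0.10). In WT C24 2 and lsm5 3, the columns that lie across genotype in the split, this gene was at the level of the labelled genotype. It was picked for its difference between the labelled genotypes in these same columns, so its values are a description and no separate check of the labels.

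Of 19819 genes tested, 1534 (7.74%) were higher and 266 (1.34%) lower in the first set, with a log2 difference of at least 1 (2-fold) with genotype as covariate and no overlap between the 3 and 3 columns. Such genes are called apart below. These shares are the background for the counts of gene lists. Since the split was chosen on the same counts, nothing is read from them. Over all tested genes the median log2 difference was 0, with a 10th percentile of -0.65 and a 90th of 0.95, so the differences reached further above 0 than below. Without the limit on size, 4506 genes (22.7%) had all first-set columns above all second-set columns, and 3540 (17.9%) the reverse. The count of lower genes rose whichever column was left out, to between 276 and 710, where a smaller set must avoid overlap. It was largest without WT C24 2 (710) and without lsm5 3 (496), with 1840 and 1402 genes higher. Just inside the limit lay the metal transporter gene NRAMP1 (log2 difference 1, SE 0.14), and just outside it the transcription factor gene SPL10 (0.99, SE 0.19).

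The largest differences among genes apart with a mean of at least 5 CPM were in genes of varied function. GSTF6 (AT1G02930, named ATGSTF6 in the count table; chromosome 1, 661177 to 662456, TAIR10), a stress-induced glutathione transferase, was at 270.3 and 391 CPM in WT C24 1 and 3 and at 458 CPM in lsm5 3. It was at 66.2 CPM in WT C24 2 and at 72.1 and 98.2 CPM in lsm5 1 and 2. The sets did not overlap, and the log2 difference was 2.37 (SE 0.16). Its neighbour GSTF7 (AT1G02920, chromosome 1, 658657 to 659771) had a log2 difference of 1.96 (SE 0.15). The pair are related copies whose shared reads may have been split by the counting, so their separate values are uncertain. AT5G27430, a signal peptidase subunit, had the largest of these differences (log2 2.39, SE 0.19): 10.9, 13.7 and 15.7 CPM in the first set and 2.06, 3.03 and 3.65 CPM in the second. AT1G15120, the hinge protein of the mitochondrial cytochrome bc1 complex, was at 25.3, 25.5 and 35.9 CPM against 6.13, 8.63 and 9.28 CPM (log2 2.02, SE 0.14). A subunit shared by the nuclear RNA polymerases, Rpb8 (AT1G54250), was at 6.32, 8.83 and 9.46 CPM against 1.55 to 2.84 CPM (log2 1.98, SE 0.24). The other 7 of the 12 highest were AT1G74670 of the gibberellin-regulated family, AT1G65490, the transmembrane 14C family gene AT1G50740, the alpha/beta-hydrolase gene AT2G26750, the low-temperature and salt responsive family gene AT4G30660, and AT4G22513 and AT4G22517 of the lipid-transfer family, with log2 differences from 1.99 to 2.09. AT4G22513 and AT4G22517 are neighbouring related copies, so their values are uncertain for the same reason. By the definition of apart, the 3 first-set columns lay above the 3 second-set columns in both genotypes in these 12 genes.

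The lowest genes in the first set included cell wall and water-stress genes. EXT4 (AT1G76930, named ATEXT1 in the count table; chromosome 1, 28895301 to 28896883), an extensin of the cell wall, was at 686 and 1064 CPM in WT C24 1 and 3 and at 708 CPM in lsm5 3. It was at 2788 CPM in WT C24 2 and at 1421 and 1309.8 CPM in lsm5 1 and 2, so the sets did not overlap (log2 -1.31, SE 0.17). The dehydrin family gene AT1G54410 was at 624, 520.4 and 432 CPM in the first set and at 955, 1926 and 1301 CPM in the second (log2 -1.32, SE 0.22; -0.78 without lsm5 3). ATHB7 (AT2G46680), a homeodomain transcription factor induced by water deficit and ABA, was at 16.1, 9.29 and 12.6 CPM against 20.2, 49.5 and 33.4 CPM (log2 -1.21, SE 0.25). The values of ATHB7 in WT C24 1 and WT C24 2 were close, and its difference was -0.72 without lsm5 3. AT4G22485, a lipid-transfer family gene near AT4G22513, was at 156, 173 and 151 CPM against 446, 354 and 327 CPM (log2 -1.30, SE 0.12): this family had members on both sides. AT3G26460, of a lipid transport superfamily, had the lowest difference (log2 -1.91, SE 0.34; 4.1, 6.64 and 2.04 against 11, 17.6 and 13.9 CPM; -1.04 without lsm5 3 and -2.95 without WT C24 2). The other 7 of the 12 lowest, AT1G35110, SADHU2-1, the VQ motif gene AT1G68450, AT2G25460, AT3G19650, AT5G54585 and AT3G14060, lay between -1.66 and -1.19. AT1G35110 and the retroelement SADHU2-1 overlap on chromosome 1 (12833398 to 12840997 and 12840228 to 12841118), so they share reads and count as 1 signal.

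**Figure D1:**
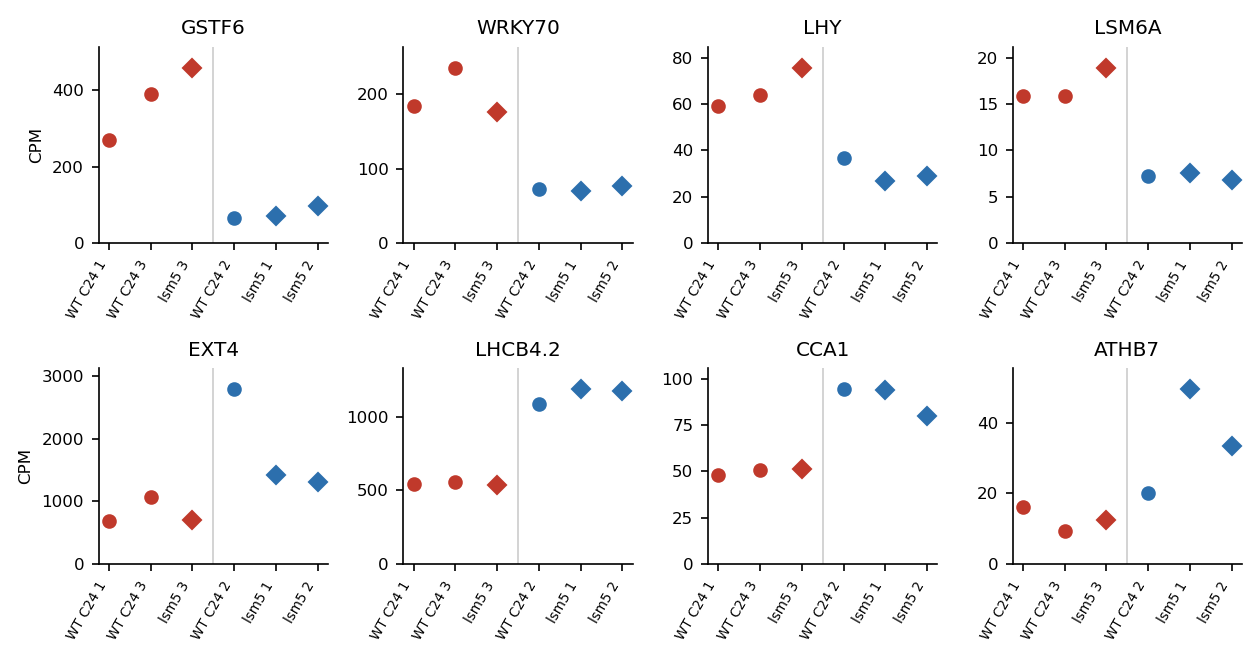
Level of 8 genes in each C24 column (vertical axes, TMM-scaled CPM from 0), with the first set in red left of the line and the second in blue; circles are wild type and diamonds lsm5, and each point is 1 count column. GSTF6, WRKY70, LHY and LSM6A lie higher in all 3 first-set columns, and EXT4, LHCB4.2, CCA1 and ATHB7 lower in all 3.

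The set difference followed the local base composition of the coding sequence. Each coding sequence of the RefSeq annotation of TAIR10.1, whose nuclear coordinates equal those of TAIR10, was read in windows of 100 bases, and the share of windows with at least 50% G or C was taken; this width and limit were picked after several others had been tried on the same differences. Across 19101 tested genes with such windows, the Spearman rank correlation of the log2 set difference with that share was -0.58. Across the same genes it was -0.50 for WT C24 1 and 3 against WT C24 2 and -0.57 for lsm5 3 against lsm5 1 and 2, which share no column. These are descriptions: genes are not replicates, and all genes of a column share its library, depth and scaling. Genes apart and higher in the first set had a median share of 3.62% (1470 of 1534 had windows), those apart and lower 34.7% (240 of 266), and all tested genes 12.5%. The richest window of each of 5 genes shows what the measure reads; G and C are in capitals. GSTF6 (chr1:662074-662173, minus strand), AT1G74670 (chr1:28053761-28053860, plus strand) and LSM6A (chr3:22096862-22097426, plus strand, spliced) were higher in the first set, and their richest window held 48% G and C. LHCB4.2 (chr3:2718125-2718309, plus strand, spliced) and EXT4 (chr1:28896610-28896709, minus strand) were lower, and theirs held 60%. These 5 genes are picked examples, and other named genes did not follow this contrast. The richest window of AT2G26750, which was higher in the first set, held 65%, and that of AT1G54410, which was lower, 53%.
GSTF6: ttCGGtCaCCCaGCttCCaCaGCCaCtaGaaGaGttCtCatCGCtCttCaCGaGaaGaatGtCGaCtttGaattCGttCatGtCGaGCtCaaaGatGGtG
AT1G74670: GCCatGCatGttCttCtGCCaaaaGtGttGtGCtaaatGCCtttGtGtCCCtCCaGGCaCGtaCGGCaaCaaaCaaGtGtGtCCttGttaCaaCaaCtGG
LSM6A: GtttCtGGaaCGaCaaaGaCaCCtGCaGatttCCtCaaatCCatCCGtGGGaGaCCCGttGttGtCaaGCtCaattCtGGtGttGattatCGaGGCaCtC
LHCB4.2: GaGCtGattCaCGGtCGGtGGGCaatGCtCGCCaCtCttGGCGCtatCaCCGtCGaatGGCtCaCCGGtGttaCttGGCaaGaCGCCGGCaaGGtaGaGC
EXT4: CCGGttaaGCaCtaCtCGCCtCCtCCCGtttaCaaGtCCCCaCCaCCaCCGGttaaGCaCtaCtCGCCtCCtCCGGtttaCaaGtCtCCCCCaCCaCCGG

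None of the windows of GSTF6, AT1G74670 and LSM6A reached 50%, whereas 78.8% of those of LHCB4.2 and 72% of those of EXT4 did. AT4G22517, also among the highest genes, had 35.3% of its windows at 50% or more, and AT1G54410, among the lowest, 16.2%. In 1361 genes with no such window the median log2 set difference was 0.54, and 266 of them (19.5%) were apart and higher. It was 0.48 in 3850 genes with a share of over 0 to 5%, 0.22 over 5 to 10%, 0.01 over 10 to 20%, -0.19 over 20 to 30%, -0.37 over 30 to 50% and -0.57 over 50 to 75%. In the 540 genes with a share over 75% it was -0.65, and 32 (5.93%) were apart and lower against 3 (0.556%) higher. The median level also differed between these bins, from 2.55 CPM in the first to 22.3 CPM in the last, and the correlation of the set difference with mean level was -0.17 over 19819 genes. By column, genes with no GC-rich window deviated from their own mean by a median of 0.20, 0.19 and 0.38 in WT C24 1, WT C24 3 and lsm5 3, and by -0.29, -0.14 and -0.26 in WT C24 2, lsm5 1 and lsm5 2. Genes over 75% deviated by -0.22, -0.11 and -0.53 in the first set and by 0.31, 0.29 and 0.28 in the second. The order was the same in both genotypes, and lsm5 3 lay farthest from 0 at both ends. Genes with a share of at least 50% took 30.9%, 31.3% and 27% of the counts in the first set and 38.5%, 37.8% and 37% in the second.

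**Figure D2:**
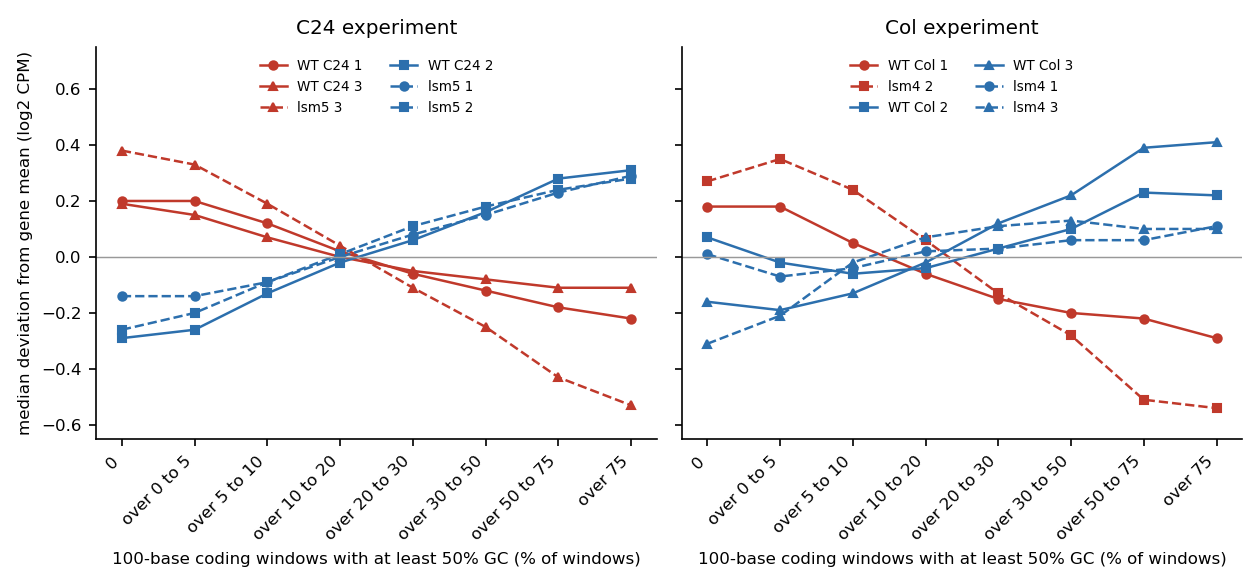
Median deviation of a column from the gene means (vertical axis, log2 CPM) in bins of the share of 100-base coding windows with at least 50% GC (horizontal axis), for the C24 columns (left) and the Col columns (right); solid lines are wild type and dashed lines mutant, red the first set and its Col counterpart, blue the others. The 3 red C24 lines fall from between 0.19 and 0.38 to between -0.11 and -0.53 while the 3 blue lines rise, and in Col the lines of WT Col 1 and lsm4 2 fall.

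Other properties of the genes went with the split less closely, the GC share of the richest window only slightly so. Across 19101 genes the Spearman correlation with the GC share of the richest window was -0.55, near the -0.58 of the window share. With the GC share of the whole coding sequence it was -0.44, with the number of exons 0.19 and with coding length 0.05. Genes with 1 exon had a median difference of -0.24 and a median window share of 27.1%; those with over 10 exons had 0.14 and 7.55%. Short genes spread most: among 2246 genes of up to 500 coding bases the 10th and 90th percentiles were -0.82 and 1.26, against -0.47 and 0.71 among 3360 genes of over 2000. When the median deviation in bins of the window share was taken out of each column (the GC offset, chosen after seeing the data), 667 genes were apart and higher and 369 lower. Of the genes apart without it, 572 of 1534 and 120 of 266 were still apart. GSTF6 (1.84) and AT5G27430 (1.85) kept a log2 difference over 1 with it, as did AT1G54410 (-1.33) and ATHB7 (-1.22) in the other direction, whereas EXT4 (-0.70) and LHCB4.2 (-0.44) did not. With the offset, the difference went with the share of purines (G and A) in the coding strand at a Spearman correlation of -0.29 across 19101 genes, against -0.13 without it. In the 4776 genes with the fewest purines (27.6% to 50.1%) the median was then 0.11, and in the 4775 genes with the most (54.8% to 81.1%) -0.22. AT4G22513 and AT4G22517, with 39.7% and 38.8% purines, were among the highest genes, and AT1G54410, with 71.4%, among the lowest. EXT4, with 36.4%, and AT4G22485, with 43.1%, went the other way: both were among the lowest.

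Clock genes of the same phase did not move together. LHY and CCA1 encode paired MYB factors that peak at dawn. LHY (AT1G01060) was at 59.3, 64 and 75.6 CPM in the first set and at 36.7, 26.7 and 29.1 CPM in the second (log2 1.1, SE 0.14; 0.71 without lsm5 3). CCA1 (AT2G46830) was at 48.1, 50.6 and 51.4 CPM in the first set and at 94.5, 93.7 and 80.1 CPM in the second (log2 -0.85, SE 0.12). Neither overlapped between the sets, and their directions were opposite. Of the daytime repressors, PRR9 was at 3.42, 2.88 and 3.33 CPM against 4.58, 5.4 and 4.21 CPM (log2 -0.54, SE 0.22), and PRR7 at 35.7, 31.1 and 39 CPM against 52.3, 49.6 and 45.2 CPM (-0.46, SE 0.13). PRR5 (0.10, SE 0.12) overlapped between the sets. So did TOC1 (0.13, SE 0.12) and GI (0.13, SE 0.14), which act in the evening; TOC1 was at 87.9, 89.1 and 56.7 CPM against 75.9, 57.5 and 52.9 CPM, and GI at 40, 30.6 and 40 CPM against 33.2, 32.8 and 37.8 CPM. The evening complex genes ELF4 (-0.61, SE 0.20; 21.4, 21.2 and 13.3 against 25.3, 20 and 32.4 CPM, overlapping) and LUX (-0.55, SE 0.14; 34.6, 34.3 and 22.8 against 44.2, 35.4 and 41.4 CPM, not overlapping) were lower.

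Of 14 tested morning and day genes, 1 (LHY) was apart and higher and 0 lower, with a median log2 difference of 0.06, where 7.74% and 1.34% of all tested genes were. None of 13 afternoon and evening genes was apart, and their median was -0.55; 5 of them lay lower in all first-set columns, as did 17.9% of all tested genes. Of 13 clock outputs 1 was apart, CDF1 (AT5G62430), a DOF repressor of flowering genes, at 1.88, 2.96 and 1.58 CPM against 6.71, 4.15 and 4.85 CPM (log2 -1.47, SE 0.24); the median was -0.43. The evening and output genes were also the GC-richer ones, with median window shares of 28.7% and 27.1% against 5.58% for the morning and day genes. With the GC offset the 3 medians were -0.31, -0.24 and -0.23, in the order of the lists given. CDF1 (-1.80 with the offset, window share 6.02%), PRR9 (-1.02, 2.45%) and LNK1 (-1.12, 3.31%), a coactivator of the clock loop, were lower in the first set although few of their windows are GC-rich. LHY was at 0.91 and CCA1 at -0.87 with the offset.

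Stress classes were mostly lower or near 0. Of 23 tested genes for ABA, drought and cold, 4 were apart and lower and 0 higher, where 1.34% and 7.74% of all tested genes were. The median was -0.60, where the median of all tested genes was 0. COR47, a cold-induced dehydrin, was at 274, 251 and 196 CPM in the first set and at 440.4, 536 and 449 CPM in the second (log2 -1.04, SE 0.14). HAI1, a phosphatase that dampens ABA signalling, was at 19.9, 23.8 and 19.4 CPM against 32.4, 69.1 and 39.3 CPM (-1.03, SE 0.22; -0.60 without lsm5 3), and the caleosin gene RD20 at 41.6, 32.9 and 24 CPM against 52.4, 99.7 and 67.1 CPM (-1.15, SE 0.24; -0.54 without lsm5 3 and -1.80 without WT C24 2). RD29B, an ABA-responsive gene, was near the limit of detection, at 0.0569, 0.615 and 0.215 CPM against 0.941, 1.85 and 0.742 CPM (-1.91, SE 0.65; -2.89 without WT C24 3). These 4 genes did not overlap between the sets. With the GC offset, the list's median was -0.20 and 1 gene, RD20 (-1.53), was apart. Of 13 heat shock genes 1 was apart and lower, where 1.34% of all tested genes were, and the median was -0.33. It was the regulator HSFA2 (-1.07, SE 0.43; 0.456 to 0.672 against 0.824 to 1.67 CPM; -0.48 without WT C24 2 and -1.71 without lsm5 3).

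In the defence and jasmonate lists, the share of genes apart and higher was near the 7.74% of all tested genes. WRKY70 (AT3G56400), a transcription factor between salicylic acid and jasmonate signalling, was at 184, 235 and 176 CPM in the first set and at 72.5, 70.6 and 77.1 CPM in the second (log2 1.39, SE 0.13). ALD1, an enzyme of pipecolic acid synthesis, was at 2.96, 5.53 and 7.79 CPM against 1.58, 2.34 and 2.69 CPM (1.55, SE 0.26). These were the 2 apart of 22 genes for salicylic acid and immunity, whose median was 0.13. Of 23 jasmonate genes, 2 were apart and higher, the signalling repressors JAZ3 (5.18, 7.34 and 7.84 against 2.76, 2.47 and 2.38 CPM; log2 1.45, SE 0.22) and JAZ1 (33.5, 62.2 and 69 against 22.6, 29.6 and 27.1 CPM; 1.19, SE 0.18), while the list's median was -0.17. None of 23 touch and rapid stress genes was apart (median -0.10), nor of 10 low oxygen (-0.21), 10 nitrate (-0.32), 8 sulphur (0.00), 9 iron (0.23), 5 light stress and shade (-0.75) or 17 flowering time genes (-0.30). In each of 4 further lists 1 gene was apart and higher, a share near the 7.74% of all tested genes. These were the beta-galactosidase gene BGAL4 (1.17, SE 0.12) of 15 low sugar and dark genes (median 0.01), the galactolipid synthase gene MGD2 (1.14, SE 0.43) of 12 phosphate starvation genes (0.32), the anthocyanin regulator PAP1 (1.51, SE 0.60; 0.25 without lsm5 3 and 2.88 without WT C24 2) of 14 flavonoid genes (-0.47) and the ribonucleotide reductase gene TSO2 (1.13, SE 0.14) of 10 cell cycle genes (0.06). Of 10 senescence markers NAP, a NAC transcription factor, was apart and higher (24.5, 37.1 and 53.1 against 13.9, 17.2 and 18.9 CPM; 1.36, SE 0.16), again a share near 7.74%, and the median was -0.18. Medians of the other tested markers were 0 (3 root), -0.04 (5 flower) and -0.44 (1 meristem).

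Photosynthesis genes and splicing factors were lower as lists, and both were GC-rich. Of 26 photosynthesis genes, 22 lay lower in all 3 first-set columns, as did 17.9% of all tested genes, and 2, both antenna proteins of photosystem II, passed the 2-fold limit. LHCB4.2 was at 546, 555 and 537 CPM in the first set and at 1086, 1187 and 1172 CPM in the second (log2 -1.06, SE 0.11), and LHCB2.1 had a log2 difference of -1.02 (SE 0.11). The list's median was -0.73 at a median window share of 53.3%, and -0.19 with the GC offset, with none apart. HEMA1, the glutamyl-tRNA reductase of tetrapyrrole synthesis, lay higher in all first-set columns (0.81) and had a window share of 0.848%. None of 20 SR splicing factor genes was apart, but 17 lay lower in all 3 first-set columns, where 17.9% of all tested genes did; their median was -0.55 at a share of 62.6%, and -0.03 with the offset. The LSM genes lay on the other side: 3 of 11 were apart and higher, where 7.74% of all tested genes were. In all 3 first-set columns 7 lay higher, where 22.7% of all tested genes did. Their median was 0.59 at a median share of 8.93%. With the offset the median was 0.28, and 1 gene, LSM7, was apart. LSM6A was at 15.9, 15.9 and 18.9 CPM against 7.28, 7.55 and 6.83 CPM (log2 1.27, SE 0.15), LSM7 at 5.58, 7.8 and 9 CPM against 2.88, 3.89 and 3.4 CPM (1.27, SE 0.20) and LSM6B at 12.8, 10.3 and 17.5 CPM against 5.71, 7.38 and 8.69 CPM (1.07, SE 0.17). LSM6A and LSM6B are related copies. Lists are described by their counts and medians beside those of all tested genes, and nothing is called particular to a list.

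**Figure D3:**
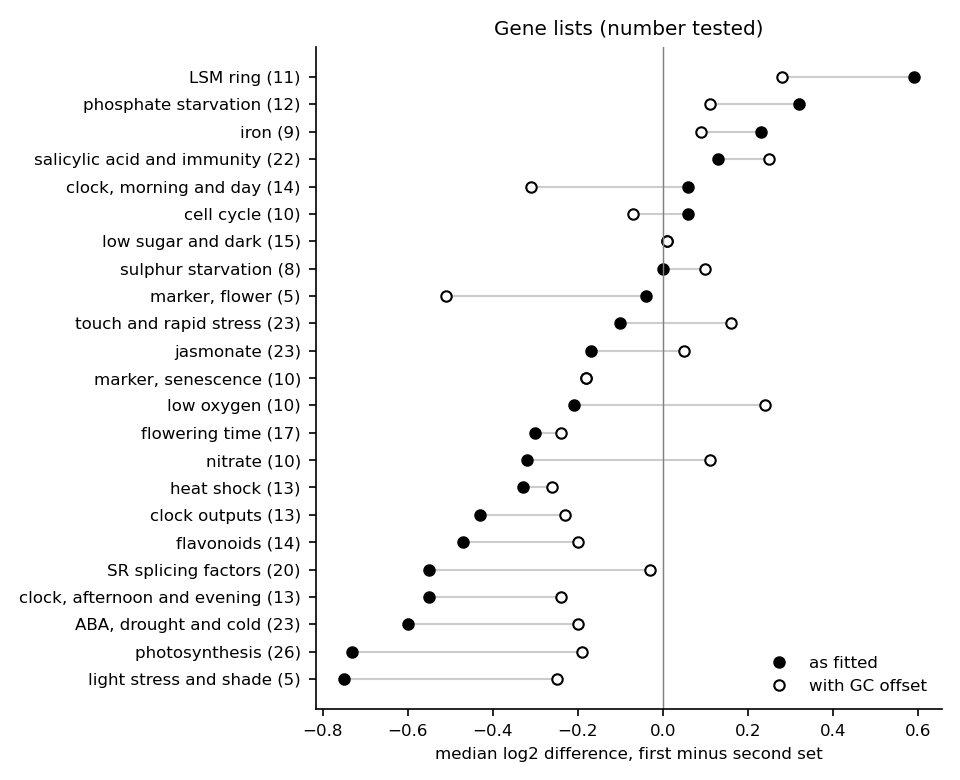
Median log2 difference between the sets (horizontal axis) for each list with at least 5 tested genes, as fitted (filled) and with the GC offset (open); the number of tested genes is in brackets. The light stress, photosynthesis and ABA medians of -0.75, -0.73 and -0.60 lie at -0.25, -0.19 and -0.20 with the offset, the SR list moves from -0.55 to -0.03, and the LSM list from 0.59 to 0.28.

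The same genes were then read in the Col experiment, in WT Col 1 and lsm4 2 against WT Col 2, WT Col 3, lsm4 1 and lsm4 3. That split was named together with the first, from these counts, so it too is a description. Of 20793 genes tested, 562 (2.7%) were apart and higher in WT Col 1 and lsm4 2, and 436 (2.1%) lower. Of the genes apart and higher in the first C24 set, 1454 were tested in Col, and 1377 of them (94.7%) lay above 0 there, against 49.1% of the 19110 genes tested in both. Their median log2 difference in Col was 0.78, and 280 (19.3%) were apart and higher. Of the 244 genes lower in the first set, 19 (7.79%) lay above 0; the median was -0.68 and 24 (9.84%) were apart and lower. Over the 19110 genes, the C24 and Col differences had a Spearman correlation of 0.75, and of 0.60 with the GC offset in both. The experiments share no column, and the points share genes and annotation. For GSTF6, WT Col 1 had 52.4 CPM and lsm4 2 had 132 CPM, with 15.3, 29.3, 36.3 and 25.8 CPM in the other 4 columns (log2 1.70). EXT4 was at 234 and 357 CPM against 561 to 696 CPM (-1.08), and LSM6A at 9.57 and 14.5 CPM against 4.49 to 8.69 CPM (0.98). The 6 values of these 3 genes in WT Col 1 and lsm4 2 did not overlap those of the other columns.

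The window share went with the Col difference in the same way, with a Spearman correlation of -0.55 over 19955 genes, and of -0.41 for the WT Col part and -0.55 for the lsm4 part. For the share of purines, without the GC offset, the correlation was -0.04 in Col, against -0.13 in C24. Genes with no GC-rich window had a median Col difference of 0.31 and those over 75% of -0.68. Some members did not repeat. NAP lay at -0.26 in Col, BGAL4 at 0.01 and HSFA2, lower in the first C24 set, at 0.58. Of the clock genes, LHY (0.46) and CCA1 (-0.61) had the same signs in Col, LNK1 was at -0.01, and PRR9 (0.13) and PRR7 (0.42) had the other sign; CDF1 was at -0.34. Of the list medians, that of salicylic acid and immunity genes was 0.13 in C24 and -0.27 in Col, and that of jasmonate genes -0.17 and 0.25. The lowest Col medians among the pathway lists were those of SR factors (-0.64), low oxygen (-0.62), touch and rapid stress (-0.58), nitrate (-0.52), ABA (-0.51) and light stress genes (-0.51), and the highest that of phosphate starvation genes (0.98). WRKY70 was at 24.9 CPM in WT Col 1 and at 3.69 and 31.2 CPM in WT Col 2 and 3, so its Col difference of 0.66 overlapped. ALD1 did not pass the filter on low counts in Col.

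**Figure D4:**
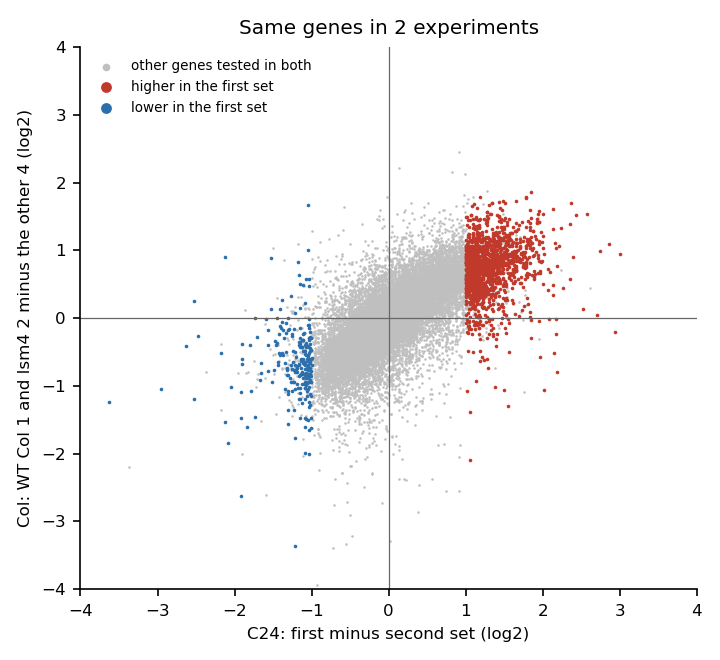
Log2 difference between the C24 sets (horizontal axis) and between WT Col 1 with lsm4 2 and the other 4 Col columns (vertical axis), 1 point per gene tested in both experiments, with axes limited to -4 to 4. Genes apart and higher in the first C24 set (red) lie mostly above 0 in Col, 1377 of 1454, and those lower (blue) mostly below, with 19 of 244 above.

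Introns were read relative to their gene, as the intron's share of the count of its host gene, column by column. Of 7854 introns tested, 796 (10.1%) were apart and higher in the first set and 593 (7.55%) lower, with a median difference of -0.03. The balance depended on the scaling and on single columns: with TMM scaling of the introns in place of the host count, 1197 were higher and 573 lower, and without lsm5 3, 928 were higher and 1080 lower. Many counts were small: the median of the mean count was 16, and among the introns with a mean of at least 30 the shares were 7.68% and 6.4%. Short introns lay slightly higher: the median was 0.04 for introns of up to 100 bases and -0.17 for those over 500 bases. The difference had a Spearman correlation of 0.05 with the intron's own GC share over 7847 introns and of 0.12 with the window share of the host over 7694. Introns whose host was apart and higher had a median of -0.21 (447 introns); the host count is the divisor. Of 261 introns in genes of the lists above, 22 (8.43%) were apart and higher and 12 (4.6%) lower, where 10.1% and 7.55% of all tested introns were. The lists with the highest shares were iron, with 3 of 8 higher, all in 1 gene, and jasmonate, with 4 of 13. Among SR genes 1 of 52 introns was higher, and among LSM genes 0 of 7.

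The introns with the largest differences came from genes of varied function. They are numbered as in the tables, by rising coordinate. Intron 2 of the ribosomal protein gene RPS5A (chromosome 3, 3778514 to 3778602, TAIR10) held 0.295%, 0.21% and 0.386% of the gene's count in the first set and 0.0335%, 0.029% and 0.0415% in the second (log2 3.21, SE 0.40), from 21, 24 and 59 against 6, 5 and 7 counts. Intron 11 of GAPC-2, a cytosolic glycolytic dehydrogenase (chromosome 1, 4610277 to 4610367; log2 2.95, SE 0.41), intron 4 of the thioredoxin superfamily gene AT3G11630 (2.88, SE 0.39), intron 3 of the ribosomal protein gene ATRPL23A (2.61, SE 0.37) and intron 3 of the pectin lyase-like gene AT4G24780 (2.58, SE 0.31) completed the 5 highest. At the other end stood the first introns of AT3G06680 and AT3G06700, both of the ribosomal L29e family and close on chromosome 3. Intron 1 of AT3G06700 (2117603 to 2117698) held 0.216%, 0.271% and 0.335% in the first set and 1.98%, 1.86% and 1.66% in the second, from 17, 34 and 48 against 328, 439 and 425 counts (log2 -2.69, SE 0.22). Intron 1 of AT3G06680 (2114486 to 2114622) had 0, 0 and 6 counts against 68, 127 and 122 (log2 -4.69, SE 0.50). Reads shared by these related copies make their separate values uncertain. Intron 3 of CLPP3, a plastid protease subunit, held 0.104%, 0.246% and 0.562% in the first set and 8.52%, 0.78% and 8.07% in the second (-3.92, SE 0.64). The value of lsm5 1, from 9 counts, lay close to that of lsm5 3, so WT C24 2 and lsm5 2 alone were far above the rest. Intron 13 of CCD1, a carotenoid cleavage dioxygenase (-2.81, SE 0.38), was also lower. Intron 1 of GSTF6 (-2.88, SE 0.36) had 7, 24 and 23 counts in the first set and 29, 28 and 31 in the second, so its lower share came with a host that was higher. In Col, 477 of 532 introns that were higher (89.7%) lay above 0, as did 55 of 531 that were lower (10.4%) and 47.2% of 6609 introns tested in both.

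Annotated alternative splicing (AS) bins, read in the same way, were more often apart and higher than apart and lower. Of 2935 bins, 488 (16.6%) were apart and higher and 182 (6.2%) lower, with a median difference of 0.12. Among bins with a mean count of at least 30 the shares were 15.2% and 5.51%. Their median was 0.02, and 51.1% lay above 0, against 55.4% of all bins. The medians by kind that follow are over all bins, whatever their count. Exon skipping bins had the highest median (0.32; 58 of 261 higher, 6 lower), then alternative 3' sites (0.19; 192 of 1021 higher, 62 lower), alternative 5' sites (0.18; 83 of 457 higher, 21 lower) and bins of multiple kinds (0.07; 72 of 438 higher, 37 lower). Intron retention bins lay at -0.03 (83 of 758 higher, 56 lower), close to the introns. A bin of multiple kinds in AT3G14420, the glycolate oxidase gene GOX1 of photorespiration (chromosome 3, 4821754 to 4821787), had 45, 68 and 305 counts in the first set and 23, 28 and 19 in the second (log2 3.24, SE 0.29 relative to the gene), so lsm5 3 stood far above the rest. The other 2 of the 3 highest, in AT4G13590 (3.60, SE 0.57) and OEP16-3 (2.73, SE 0.32), are 4 bases wide. The 3 lowest were retained introns. That of ATEXO70E2, of the exocyst complex (chromosome 5, 24554052 to 24554155), held 1.06%, 0.918% and 1.74% of the gene's count against 4.75%, 12.2% and 12.8% (log2 -2.60, SE 0.26), and it was apart in Col in the same direction (-2.20). That of AT5G25280 held 1.15%, 1.2% and 2.09% against 4.61%, 13.5% and 11.1% (-2.31, SE 0.23). The remaining one was in AT1G09500 (-2.57, SE 0.51). In Col, 382 of 411 higher bins (92.9%) and 15 of 172 lower bins (8.72%) lay above 0, against 53% of 2696.

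The measure that separates the lsm4 mutant from its wild type followed the labelled genotype in C24, not the sets. Of 13412 introns tested in Col, 1898 (14.2%) were raised in lsm4 by the edgeR quasi-likelihood test, a selection that used no C24 column; 34 were lowered. With TMM scaling of the introns, 1504 were raised and 791 lowered. Together the 1898 introns raised with the host count as offset held 0.308%, 0.319% and 0.332% of their hosts' counts in the wild type replicates. In the mutant ones they held 0.566%, 0.536% and 0.594%, numbers 1 to 3 in order. The means were 0.32% ± 0.012 and 0.565% ± 0.029 (SD, n = 3 each; exact two-sided permutation p = 0.1, the smallest that 3 against 3 can give). WT C24 2 lay between the other wild types, and lsm5 3 was the highest of the mutants. The other 11514 introns lay between 1.84% and 2% in WT C24 and between 2.04% and 2.17% in lsm5, so they did not overlap between the genotypes either. Their means were 1.93% and 2.1% (exact two-sided permutation p = 0.1). The separation by genotype was thus not limited to the introns raised in lsm4.

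**Figure D5:**
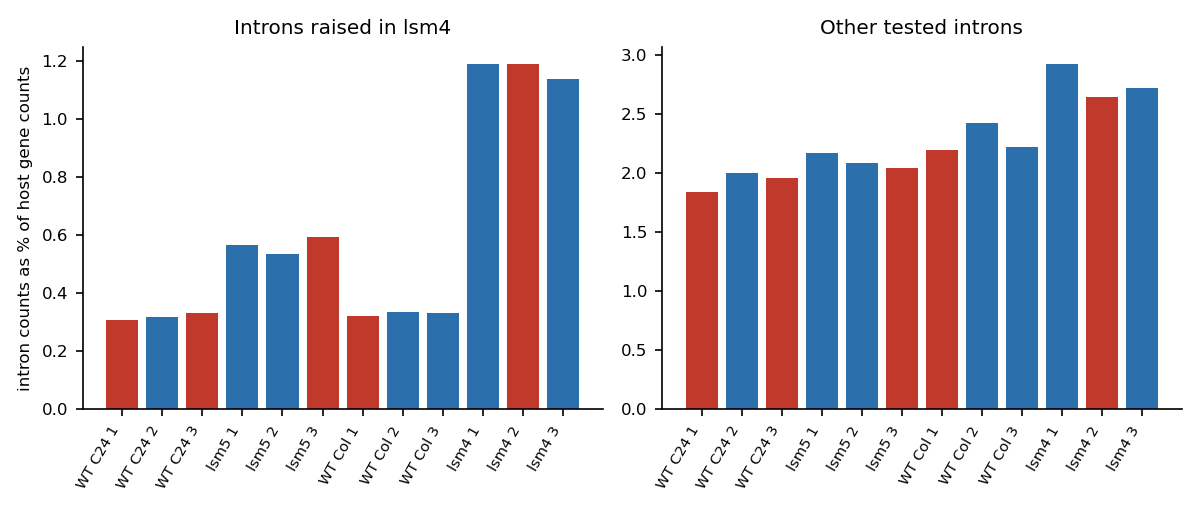
Summed intron counts as a percentage of host gene counts (vertical axes from 0) in each of the 12 count columns, for the 1898 introns raised in lsm4 (left) and the other 11514 tested introns (right); red bars are the first set and its Col counterpart, blue the others. On the left the bars of WT C24 lie at 0.308 to 0.332% and those of lsm5 at 0.536 to 0.594%, whatever their colour.

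The comparison of the genotypes was read beside the split. Of 19819 genes, 300 (1.51%) were higher and 186 (0.938%) lower in lsm5 than in WT C24 at an adjusted p under 0.05 (edgeR quasi-likelihood, Benjamini-Hochberg). None of the 1800 genes apart between the sets was among them. Of these, 61 of 1534 and 21 of 266 had an unadjusted p under 0.05, and DESeq2 called 9 and 4. This is in part fixed by the choice, since genes that differ between the sets vary within each genotype. With the set as a term in the fit, 1959 genes were higher and 2113 lower in lsm5, among them all 486; that term was chosen on the same counts, so these p-values are too small. With the GC offset, 668 were higher and 601 lower, and 474 of the 486 were among them. The offset uses no set labels, but its window width and limit were picked on the set differences of these same columns. Its calls are therefore not independent of the split, and their p-values may also be too small. Leaving out lsm5 3 gave 2042 calls, and leaving out WT C24 3 gave 23. In Col, 71 of the 1454 tested genes of the higher group (4.88%) were higher and 69 (4.75%) lower in lsm4. Of the 19110 genes tested in both experiments, 10.5% were higher and 10.3% lower. Of the 244 genes of the lower group, 28 (11.5%) were higher and 38 (15.6%) lower. These shares may also be in part fixed, since genes that differ between the Col columns of the check vary within each Col genotype.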

How the data were processed

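Per the labels and file headers, the authors deposited tables of whole-number read counts for genes, introns and AS bins, with a column for every replicate. TopHat2 (2.0.9), R (3.0.2), edgeR (3.4.2) and TAIR10 are listed in the submitters' processing notes. Which tool counted the reads, and whether by strand, is not given in the sources used here. Libraries were polyA-selected, primed with random hexamers and PCR-enriched, per the labels' protocols. Not used were 12 per-sample columns with no matching label and 1 intron row without a name, which held 11 counts.

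Genes were fitted with edgeR 4.0.16 in R 4.3.3 (TMM scaling, filterByExpr with a minimum count of 10; calls at an adjusted p under 0.05), set and genotype as terms. Introns and bins had the host count as offset, where the host had 10 or more counts throughout. Sequences, exons and products came from the RefSeq copy of the same build (TAIR10.1), where 97.6% of the introns in the tables read GT to AG. DESeq2 1.42.0 was an alternative. The fits were tested on simulated data. Replicates of a group differed beyond sampling noise (chi-square over its degrees of freedom 15.3 to 142).

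Members and lists were chosen with earlier results of these data known. Named were the 12 highest and lowest genes apart with a mean of at least 5 CPM, up to 4 genes apart per list, 10 clock and LSM genes, and the 5 introns and 3 AS bins highest and lowest among those apart with a mean count of at least 20; NRAMP1, SPL10, HEMA1, LNK1 and AT2G15555 were named after their values were seen.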

Additional observations from a re-analysis of the deposited data

How the results depend on the processing

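Against 1800 genes apart, 1036 in all were apart with the GC offset (572 higher and 120 lower genes shared), 1672 with RLE scaling (which moved the median of all genes by -0.05), 2098 without the filter, 2177 with overlap allowed and 5797 at a log2 limit of 0.5; leaving out 1 column gave 1898 to 2550. These are totals of each setting, not parts of the 1800. With 1 column left out, a smaller set must avoid overlap. Against 1389 introns and 670 AS bins, 274 and 353 were apart at a mean count of at least 30, where fewer were tested. Leaving out 1 column gave 1894 to 2328 introns (2154, 2328 and 2097 without WT C24 1, 2 and 3), where a smaller set must avoid overlap, and 730 to 869 bins. Against 1602 genes with the same direction in Col, leaving out 1 column gave 1439 to 1607.

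The 486 lsm5 calls became 1400 with DESeq2, 1269 with the GC offset, 4072 with the set as a term, and 23 to 2042 without 1 column (54 and 23 without WT C24 1 and 3, 98 and 37 without lsm5 1 and 2). The 4458 lsm4 gene calls ranged from 2704 (without lsm4 1; 2866 without WT Col 2) to 4552 without 1 column, and its 1932 intron calls from 922 to 2454 (922 and 1259 without WT Col 2 and 3, 1118 without lsm4 1), with 507 at a mean count of at least 30. The cause was not tested where none is given. The GC offset and the Col columns left out were chosen after seeing the data.

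C24 replicates with the same number in the sample titles deviated together for numbers 2 and 3 (correlations 0.52 and 0.48). Those of number 1 did not (-0.26), so the numbers were not taken as pairs. In Col the 3 correlations were -0.27, -0.13 and 0.40. The count columns carry other tags. WT C24 3 is tagged D and lsm5 3 is tagged C. WT Col 1 to 3 are tagged I, II and IV, and lsm4 1 to 3 II, III and IV. With a replicate block by title number, lsm5 had 1342 calls and lsm4 3583 gene and 1522 intron calls. With that block, 2013 genes (1509 higher and 504 lower), 1356 introns and 679 bins were apart. In the blocked set fit 1 residual degree of freedom remains.

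No log2 difference of the 45 named genes apart changed sign under any alternative run, and 24 were still apart with the GC offset. Their size moved by over 1.5 times in 9 without 1 column, in 16 with the GC offset and in 11 with the replicate block, where JAZ1 was at 0.38 against 1.19 and RD29B at -5.72 against -1.91. All differences rest on 6 columns, and small intron counts limit the intron values.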
